A study of Mus musculus with 6 samples.

Results

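The 10 genes described here store iron, bring it into the cell, release it, or sense it. They were taken by symbol from a table of 54532 mouse genes, and each symbol matched a single row. Fth1 and Ftl1 encode the heavy and light subunits of ferritin, and Ncoa4 encodes the receptor that delivers ferritin for degradation. Tfrc (transferrin receptor), Steap3 (an endosomal ferrireductase) and Slc11a2 (a divalent metal transporter) serve import, Slc11a1 is the metal transporter of the phagosome, and Slc40a1 is the exporter ferroportin. Aco1 and Ireb2 encode the iron regulatory proteins. The values come from 6 poly-A RNA-seq libraries of bone-marrow-derived macrophages (BMDMs), macrophages grown from marrow in medium conditioned by L929 cells, from wild-type C57BL/6 mice. BMDMs were left without stimulus (Untr, 2 libraries), exposed to 100 ng/ml of the bacterial cell-wall component lipopolysaccharide over 2 h (LPS, 2 libraries), or given 5 mM metformin during the 6 h before an identical LPS exposure (Met + LPS, 2 libraries). No library of BMDMs with metformin alone was analysed, so metformin was compared only in LPS-stimulated cells. The paper states that BMDMs were seeded in duplicate, and neither the labels nor the methods tie the 2 libraries of a group to separate mice. The p-values therefore measure only the spread between these libraries, which may be technical.

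Macrophages take up iron with transferrin and with engulfed red cells, keep it in ferritin, and return it to plasma through ferroportin. During infection they are known to hold iron back from microbes. Cells balance these steps largely after transcription. When iron is scarce, the iron regulatory proteins bind hairpins in mRNA, the iron-responsive elements (IREs). An IRE in the 5′ untranslated region (UTR) then blocks translation, as in ferritin and ferroportin mRNA, and IREs in the 3′ UTR shield the mRNA from decay, as in transferrin receptor mRNA. RNA-seq measures the amount of mRNA and shows neither translation nor iron. C57BL/6 mice carry an Slc11a1 allele whose protein does not function, so that Slc11a1 values describe the transcript alone.

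The hairpins are shown because they set apart the members whose mRNA the iron regulatory proteins can bind. UTRs of GENCODE transcripts (GRCm38) were searched on the transcribed strand for a C, 5 stem bases, the loop CAGTGN or CAGAGN, and 5 bases that pair with the first 5, G-T pairs allowed. Of the 10 genes, Fth1, Ftl1 and Slc40a1 held a match in the 5′ UTR and Tfrc held 5 in the 3′ UTR, while Slc11a2 held a 3′ UTR match with 1 unpaired position in the upper stem, in some of its transcripts. Among all genes with such a region, 69 of 21200 (0.325%) held a full match in the 5′ UTR and 290 of 21193 (1.37%) in the 3′ UTR. Matches with 1 unpaired position, as in Slc11a2, were not counted over all genes. Each match is printed within a stretch of 30 bases that includes bases on both sides of it, and the positions are those of the stretch. Sequences are written 5′ to 3′ with the strand in parentheses, and capitals mark the loop.
Fth1 5′ UTR, chr19:9982732-9982761 (+): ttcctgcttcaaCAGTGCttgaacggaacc
Ftl1 5′ UTR, chr7:45459778-45459807 (-): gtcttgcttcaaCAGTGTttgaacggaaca
Slc40a1 5′ UTR, chr1:45925464-45925493 (-): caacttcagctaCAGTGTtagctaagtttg
Tfrc 3′ UTR, chr16:32631160-32631189 (+): atttatcagtgaCAGAGTtcactataaata
Tfrc 3′ UTR, chr16:32631219-32631248 (+): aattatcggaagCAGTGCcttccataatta
Tfrc 3′ UTR, chr16:32631598-32631627 (+): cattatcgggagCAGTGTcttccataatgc
Tfrc 3′ UTR, chr16:32631663-32631692 (+): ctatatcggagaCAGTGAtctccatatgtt
Tfrc 3′ UTR, chr16:32631710-32631739 (+): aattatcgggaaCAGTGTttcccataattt
Slc11a2 3′ UTR, chr15:100395152-100395181 (-): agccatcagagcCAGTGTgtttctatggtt
The remaining 5 genes, Ncoa4, Steap3, Slc11a1, Aco1 and Ireb2, held no match of these letters in their UTRs. A match is a description of the sequence, and binding was not measured.

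Values are in TPM, a unit for transcript amounts that is scaled by gene length and to a common total in each library. Whole reads recovered from them came to between 25457016 and 30762754 per library, and the 10 genes rested on 700 reads (Slc40a1 in LPS replicate 2) to 1646081 reads (Fth1 in Met + LPS replicate 2) in a library. The label was checked against 9 macrophage markers, all of which passed the filter, with a summed level of 44759 and 46739 TPM in Untr, 37915 and 37424 in LPS and 30890 and 30960 in Met + LPS. The summed level of 8 neutrophil markers was 26.5 to 32.6 TPM in Untr and LPS and 43.6 to 45.5 in Met + LPS, with Ly6g at 0 in Untr and LPS. The 9 erythroid markers summed to at most 1.12 TPM, and the globin genes Hba-a2, Hbb-bs and Hbb-bt were listed at 0 throughout. The summed level in each library was at most 0.278 TPM for 4 T cell markers, 3.18 for 4 B cell markers, 2.80 for 4 dendritic cell markers, 0.846 for 5 fibroblast markers and 1.56 for 4 mast cell and basophil markers. The part of these levels in the changes described next was not tested.

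Differences were tested with limma on log2(TPM + 1) for the 12755 genes with 1 TPM or more in at least 2 libraries, and a gene is said to rise or fall where the adjusted p was under 0.01. On the deposited scale the median tested gene changed by -0.48 (log2) between Untr and LPS, by -0.03 between LPS and Met + LPS, and by -0.48 between Untr and Met + LPS. Rescaling each library by the median ratio over genes brought these medians to -0.01, -0.02 and 0.00. Changes against Untr are therefore given on the deposited scale and, in the same sentence, after rescaling, whereas changes between LPS and Met + LPS moved little with it.

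**Figure D1:**
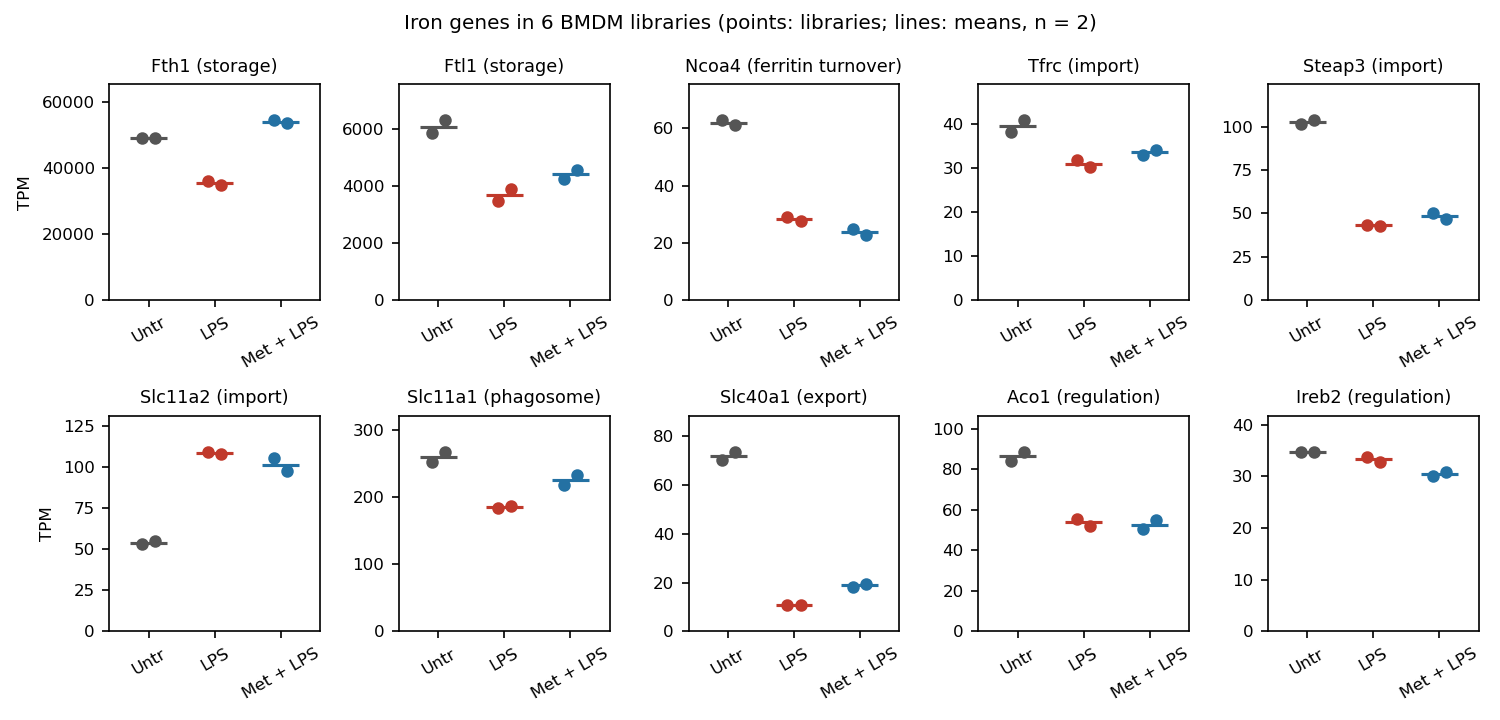
Levels of the 10 iron genes in TPM (vertical axes, each from 0) in the 6 libraries by group; points are libraries and lines are group means of 2 libraries. On this deposited scale Slc40a1 dropped from 72.0 to 10.8 TPM with LPS and stood at 18.9 in Met + LPS, Slc11a2 was near 54 TPM in Untr and above 97 in the other groups, and Fth1 was highest in Met + LPS; the lower LPS levels of Fth1, Tfrc, Slc11a1 and Ireb2 turned to higher ones after rescaling by the median ratio.

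Between Untr and LPS, 9 of the 10 genes passed the test, 8 lower and 1 higher in LPS, where 76.3% of all tested genes passed, 60.1% lower and 16.2% higher. The members' share was thus close to that of all genes, and their median change of -0.58 was close to the median of all genes. After rescaling, 5 passed (Slc11a2 and Ireb2 higher; Slc40a1, Ncoa4 and Steap3 lower), beside 58.3% of all genes, 30.6% higher and 27.6% lower. Between LPS and Met + LPS, 3 of the 10 passed, Fth1, Slc40a1 and Slc11a1, each higher in Met + LPS, where 32.6% of all genes passed, 14.5% higher and 18% lower. The same 3 passed after rescaling, each higher, beside 33.1% of all genes, 15.6% higher and 17.4% lower. Past an additional fold-change cut-off of 2 (log2) for LPS vs. Untr and of 0.7 for Met + LPS vs. LPS, Slc40a1 was the only member in each comparison, beside 6.08% and 8.28% of all genes. The libraries of the groups did not overlap for 10 of 10 members between Untr and LPS (91.6% of all genes) for 9 of 10 between LPS and Met + LPS (73.8%), and for 10 of 10 between Untr and Met + LPS (90.7%). Each pair of these 3 comparisons shares the 2 libraries of a group, so their values are not independent.

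The ferritin heavy chain, Fth1 (ENSMUSG00000024661, chromosome 19, 9982703 to 9985092), carries the ferroxidase site that oxidizes iron for storage. It was the gene with the highest TPM in each of the 6 libraries, with 48888 and 49098 TPM in Untr, 36001 and 34934 in LPS, and 54320 and 53613 in Met + LPS. These levels were 4.89% and 4.91%, 3.60% and 3.49%, and 5.43% and 5.36% of all TPM. The groups did not overlap. Fth1 fell by 0.47 (log2, SE 0.04, adjusted p = 4.66e-05) between Untr and LPS on the deposited scale, close to the median of all genes, and was 0.06 higher after rescaling, where it did not pass. It rose by 0.61 (SE 0.04, adjusted p = 7.63e-05) between LPS and Met + LPS, a 1.52-fold difference of the means. Without the filter on low values neither call was kept. Met + LPS lay 0.14 (adjusted p = 0.0157) above Untr, without passing, but passed with LPS replicate 1, LPS replicate 2 or both left out of the fit (0.14 each) and with voom on the recovered reads (0.16), and lay 0.68 above it after rescaling, where it passed. In bulk RNA, a change in the share of a cell type and a change in RNA per cell cannot be told apart.

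The light chain, Ftl1 (ENSMUSG00000050708, chromosome 7, 45457944 to 45459884), aids mineralization of the iron core. Its libraries held 5850 and 6298 TPM in Untr, 3484 and 3903 in LPS, and 4239 and 4568 in Met + LPS. All 3 groups were apart, with Met + LPS in between. It fell by 0.72 (SE 0.07, adjusted p = 7.56e-05) between Untr and LPS, and by 0.19 after rescaling, where it no longer passed. The difference of 0.25 between LPS and Met + LPS did not pass (adjusted p = 0.0221, 95% interval 0.09 to 0.42), but passed with voom on the recovered reads (0.25) and with a minimum of 5 TPM. Only 42.3% of the 31-base words in Ftl1 transcripts occur in no other gene. How reads that fit more than 1 gene were counted is not stated, so Ftl1 values are uncertain. Of 5 ferritin pseudogenes in the table, the highest reached 14.5 TPM (Ftl1-ps1).

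Heavy and light chain were therefore also compared within each library, as a ratio that no scaling of a library changes. The Fth1/Ftl1 ratio of TPM was 8.36 and 7.80 in Untr, 10.3 and 8.95 in LPS, and 12.8 and 11.7 in Met + LPS. Its size, unlike its change between groups, depends on the gene lengths used. Those lengths were 4.01 (Fth1) and 1.38 (Ftl1) times the annotated transcript lengths, and the uncertainty of Ftl1 values applies to the ratio too. The ratio was higher in both LPS libraries than in both Untr libraries, and higher again in both Met + LPS libraries, by 0.25 and 0.35 (log2). Without LPS replicate 1 the difference between LPS and Untr was 0.15. An exact two-sided permutation test on 2 libraries a group cannot give less than p = 0.333, and every ratio comparison given here had that value.

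Ncoa4 (ENSMUSG00000056234, chromosome 14, 32159865 to 32179855) binds ferritin and carries it to the lysosome, where its iron is freed. Its libraries held 62.7 and 61.2 TPM in Untr, 29.0 and 27.8 in LPS, and 24.8 and 22.7 in Met + LPS. It was lowest in Met + LPS, and no groups overlapped. Ncoa4 fell by 1.10 (SE 0.06, adjusted p = 3.97e-06) between Untr and LPS, and by 0.59 after rescaling, where it still passed. The further difference of -0.25 between LPS and Met + LPS missed the threshold (adjusted p = 0.0107), and passed it without Met + LPS replicate 1 (-0.31), with voom on the recovered reads (-0.26) and with a minimum of 5 TPM. Against Untr, Met + LPS was lower by 1.35 (adjusted p = 1.74e-06), and by 0.82 after rescaling. Ncoa4 and Fth1 thus moved in opposite directions between LPS and Met + LPS by their values, of which that of Ncoa4 did not pass. In Ncoa4, 81.2% of 31-base words occur in no other gene.

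Among the import genes, Tfrc (ENSMUSG00000022797, chromosome 16, 32608920 to 32632794) takes up iron-loaded transferrin from outside the cell. Its libraries held 38.1 and 40.9 TPM in Untr, 31.9 and 30.2 in LPS, and 33.0 and 34.2 in Met + LPS. The spread of values over all 6 libraries was small beside that of the other import genes. Tfrc fell by 0.34 (SE 0.05, adjusted p = 0.000889) between Untr and LPS on the deposited scale, but was 0.17 higher after rescaling, where it did not pass. Without Untr replicate 2 the fall was 0.29 and no longer passed. The difference of 0.11 between LPS and Met + LPS did not pass (adjusted p = 0.135, 95% interval -0.02 to 0.24). Tfrc holds the most IRE matches of the 10 genes, all of the kind that shields mRNA.

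Steap3 (ENSMUSG00000026389, chromosome 1, 120190757 to 120272705) reduces the iron released from transferrin in the endosome. Its libraries held 102 and 104 TPM in Untr, 43.2 and 43.0 in LPS, and 50.1 and 46.7 in Met + LPS. Both stimulated groups were well below Untr. Steap3 fell by 1.23 (SE 0.04, adjusted p = 9.3e-07) between Untr and LPS, and by 0.72 after rescaling, where it still passed. The difference of 0.16 between LPS and Met + LPS did not pass (adjusted p = 0.0232), but passed with voom on the recovered reads (0.16). Against Untr, Met + LPS was lower by 1.07 (adjusted p = 1.8e-06), and by 0.54 after rescaling, which passed too.

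Slc11a2 (ENSMUSG00000023030, chromosome 15, 100387898 to 100425072) moves ferrous iron across the endosomal membrane into the cytosol. It was the only member that rose with LPS on the deposited scale, with 53.1 and 55.1 TPM in Untr, 109 and 108 in LPS, and 105 and 97.8 in Met + LPS. It rose by 0.99 (SE 0.05, adjusted p = 2.92e-06) between Untr and LPS, a 2.01-fold difference of the means, and by 1.51 after rescaling. The difference of -0.10 between LPS and Met + LPS did not pass (adjusted p = 0.135, 95% interval -0.21 to 0.02). The values are per gene and do not separate transcripts with the 3′ UTR match from those without it.

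The phagosomal transporter Slc11a1 (ENSMUSG00000026177, chromosome 1, 74375195 to 74386062), a relative of Slc11a2, is a marker of myeloid cells. Its libraries held 252 and 267 TPM in Untr, 184 and 187 in LPS, and 218 and 233 in Met + LPS. Met + LPS lay between the other groups without overlap. Slc11a1 fell by 0.48 (SE 0.05, adjusted p = 6.67e-05) between Untr and LPS, the same as the median of all genes, and was 0.04 higher after rescaling, where it did not pass. It rose by 0.28 (SE 0.05, adjusted p = 0.00281) between LPS and Met + LPS, and this call was lost without LPS replicate 1 (0.27), without LPS replicate 2 (0.29) without Met + LPS replicate 2 (0.23), without the filter and without the variance trend. The Slc11a1/Slc11a2 ratio within a library was 4.75 and 4.85 in Untr, 1.69 and 1.73 in LPS, and 2.07 and 2.38 in Met + LPS. The transcripts of these relatives were thus closer to each other in both stimulated groups than in Untr, by 1.49 (log2) in LPS.

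The exporter Slc40a1 (ENSMUSG00000025993, chromosome 1, 45908068 to 45926523) is the only known exporter of ferrous iron in mammalian cells. It changed most of the 10 genes in both comparisons. Its libraries held 70.4 and 73.6 TPM in Untr, 11.0 and 10.7 in LPS, and 18.2 and 19.6 in Met + LPS. The means were 72.0 ± 2.29, 10.8 ± 0.226 and 18.9 ± 0.981 TPM (SD, n = 2 each). All 3 groups were far apart beside the spread within them. Slc40a1 fell by 2.63 (SE 0.05, adjusted p = 7.75e-08) between Untr and LPS, a 6.66-fold difference of the means, and by 2.12 after rescaling. It rose by 0.75 (SE 0.05, adjusted p = 0.000104) between LPS and Met + LPS, a 1.75-fold difference of the means, and by 0.77 after rescaling. Met + LPS remained 1.88 (adjusted p = 4.01e-07) below Untr, or 1.35 after rescaling. Leaving out each library in turn kept both calls, with changes of -2.66 to -2.60 and of 0.70 to 0.80. The summed neutrophil markers were also higher in Met + LPS than in LPS, as given above, and their part in this rise was not tested.

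Over the 6 libraries, the tested genes outside the iron lists with the pattern nearest to that of Slc40a1 were Tsc22d3, Dnmbp and Zfp652. Their Euclidean distances from it in centred log2(TPM + 1) were 0.14, 0.20 and 0.22. Tsc22d3 averaged 58.4 TPM in Untr, 7.96 in LPS and 14.9 in Met + LPS. The likeness describes these libraries only.

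Within a library, export was set against storage and import. The Slc40a1/Tfrc ratio of TPM was 1.85 and 1.80 in Untr, 0.344 and 0.352 in LPS, and 0.552 and 0.573 in Met + LPS. The ratio was 5.23-fold lower in LPS than in Untr and 1.61-fold higher in Met + LPS than in LPS. These differences do not depend on gene length, but whether the ratio lies above 1 does: with the transcript lengths of the table, chosen after seeing the data, it was 3.90 and 3.80 in Untr, 0.727 and 0.744 in LPS, and 1.16 and 1.21 in Met + LPS. The Slc40a1/Fth1 ratio was 4.82-fold lower in LPS than in Untr and 1.15-fold higher in Met + LPS than in LPS, where the exporter and the ferritin heavy chain had both risen. The Tfrc/Fth1 ratio was 0.12 (log2) higher in LPS than in Untr, or 0.072 without Untr replicate 1, and 0.49 lower in Met + LPS than in LPS. No groups overlapped in these ratios.

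**Figure D2:**
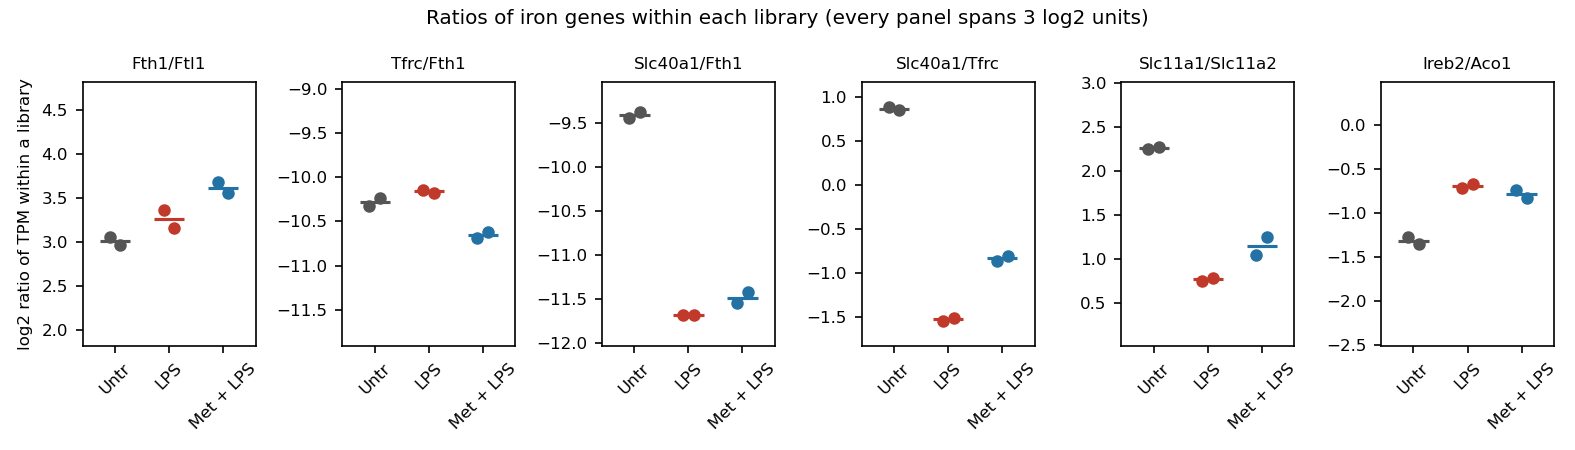
Log2 ratios of TPM of 2 iron genes within each library (vertical axes, each spanning 3 log2 units) by group; points are libraries and lines are group means of 2 libraries. Slc40a1/Tfrc dropped by 2.39 between Untr and LPS and was 0.69 higher in Met + LPS, Slc11a1/Slc11a2 dropped by 1.49, and Fth1/Ftl1 was higher in each group than in the one to its left.

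The regulators Aco1 and Ireb2 encode the proteins that bind the hairpins. Aco1 (ENSMUSG00000028405, chromosome 4, 40143081 to 40198338) doubles as the cytosolic aconitase when it holds an iron-sulphur cluster. Its libraries held 84.3 and 88.6 TPM in Untr, 55.5 and 52.1 in LPS, and 50.5 and 54.8 in Met + LPS. LPS and Met + LPS overlapped, the only such pair among the 10 genes. Aco1 fell by 0.67 (SE 0.06, adjusted p = 3.94e-05) between Untr and LPS, and by 0.16 after rescaling, where it did not pass. The difference of -0.03 between LPS and Met + LPS did not pass (adjusted p = 0.683, 95% interval -0.17 to 0.10).

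Ireb2 (ENSMUSG00000032293, chromosome 9, 54863789 to 54912530) encodes the regulator that is degraded when iron is ample. It varied least on the deposited scale, with 34.7 and 34.7 TPM in Untr, 33.8 and 32.8 in LPS, and 30.2 and 30.8 in Met + LPS. The difference of -0.06 between Untr and LPS did not pass on the deposited scale (adjusted p = 0.217), and after rescaling Ireb2 was 0.45 higher and passed. Between LPS and Met + LPS it differed by -0.12, which did not pass (adjusted p = 0.0461). The Ireb2/Aco1 ratio within a library was 0.412 and 0.392 in Untr, 0.609 and 0.629 in LPS, and 0.598 and 0.561 in Met + LPS. Ireb2 was thus higher relative to Aco1 in both stimulated groups, by 0.62 (log2) in LPS.

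**Figure D3:**
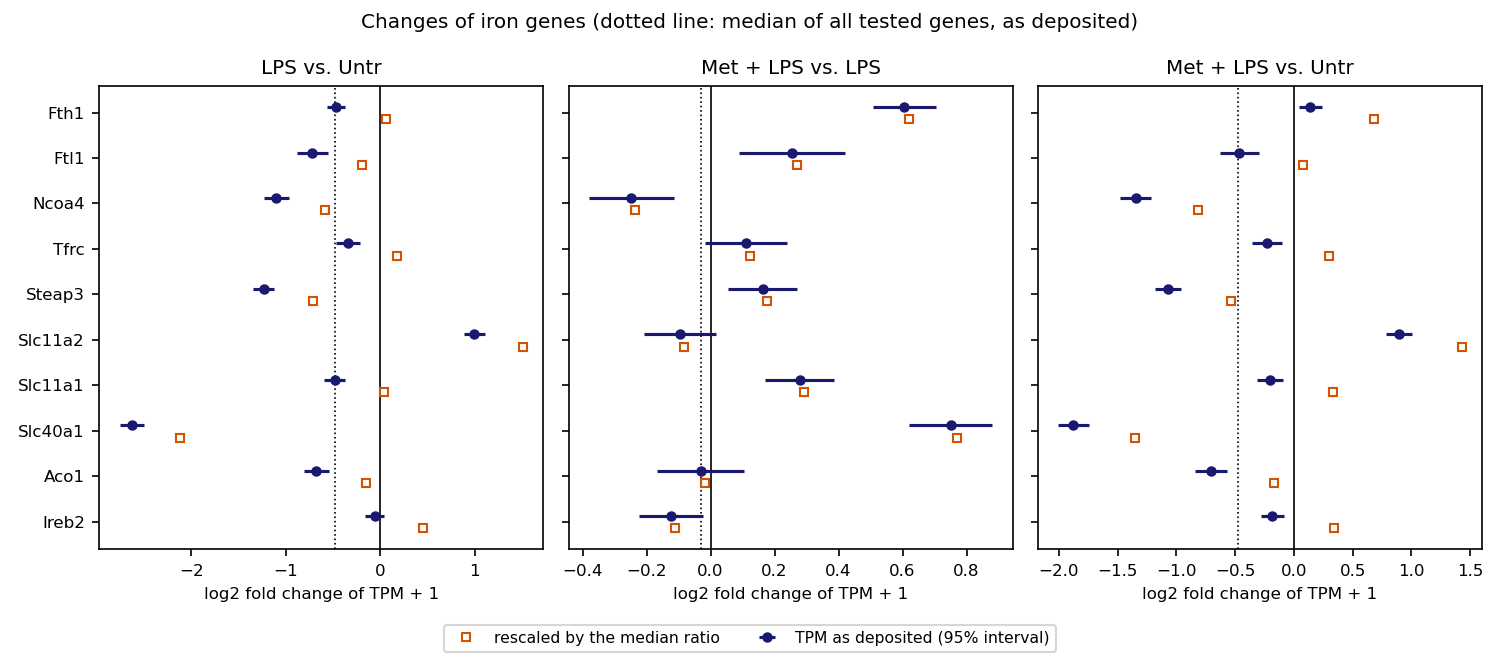
Log2 fold changes of the 10 iron genes (horizontal axes, log2 of TPM + 1) in the 3 comparisons; filled points with 95% intervals are on the deposited scale, open squares are after rescaling by the median ratio, and the dotted line is the median of all tested genes. With LPS, Slc40a1, Ncoa4 and Steap3 lay below 0 and Slc11a2 above it on both scales, while Fth1, Tfrc, Slc11a1 and Ireb2 lay below 0 on the deposited scale and above it after rescaling; against Untr, Met + LPS values of Ftl1, Tfrc, Slc11a1 and Ireb2 changed sides likewise.

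Against Untr, Met + LPS differed in 9 of the 10 genes, 8 lower and only Slc11a2 higher, where 75.1% of all tested genes passed, 16.3% higher and 58.8% lower. Without Untr replicate 2, 5 passed, and Ftl1 was among those lost (-0.41). The calls of Tfrc, Slc11a1 and Ireb2 against Untr did not survive the loss of either Untr library, and over all single libraries left out their changes on the deposited scale, which turned to 0.30, 0.33 and 0.34 after rescaling, ranged from -0.28 to -0.18, from -0.25 to -0.16 and from -0.20 to -0.17. After rescaling 8 passed, of which Fth1, Tfrc, Slc11a1, Slc11a2 and Ireb2 were higher and Slc40a1, Ncoa4 and Steap3 lower, beside 63.1% of all genes, 33.4% higher and 29.7% lower. Slc11a2 (0.90 on the deposited scale and 1.43 after rescaling), Slc40a1, Ncoa4 and Steap3 kept direction and call on both scales in both comparisons with Untr.

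TPM are per length, so that levels can be ordered between genes. In Untr the order from the highest was Fth1, Ftl1, Slc11a1, Steap3, Aco1, Slc40a1, Ncoa4, Slc11a2, Tfrc and Ireb2. In LPS it was Fth1, Ftl1, Slc11a1, Slc11a2, Aco1, Steap3, Ireb2, Tfrc, Ncoa4 and Slc40a1. Met + LPS had the LPS order except that Tfrc stood above Ireb2. Some neighbours lay close, such as 34.7 TPM (Ireb2) and 38.1 TPM (Tfrc replicate 1) in Untr. Closer still were 32.8 TPM (Ireb2 replicate 2) and 31.9 TPM (Tfrc replicate 1) in LPS. In Met + LPS, Aco1 replicate 1 held 50.5 TPM and Steap3 replicate 1 held 50.1 TPM. With 2 libraries a group, the order is a description. It rests on gene lengths that join all exons, which were between 1.11 (Steap3) and 4.01 (Fth1) times the transcript lengths in the deposited table, with 2.67 for Slc40a1, 2.30 for Ncoa4 and 2.10 for Slc11a2. With the transcript lengths, Fth1, Ftl1 and Slc11a1 kept the first places in each group, while the order of the others turned, and in Untr it was Slc40a1, Ncoa4, Steap3, Slc11a2, Aco1, Ireb2 and Tfrc. The choice of length leaves the fold change of a gene as it is.

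The other genes of iron and haem handling were followed in 6 lists with 80 genes in the table, of which 62 passed the filter and 5 were listed at 0 in all libraries. Between Untr and LPS 50 of them passed the test, 12 higher and 38 lower, beside 76.3% of all genes, and after rescaling 31 passed, 18 higher and 13 lower. Their median change of -0.50 was close to that of all genes. Between LPS and Met + LPS 26 passed, 13 in each direction, beside 32.6% of all genes, with a median of -0.12. Leaving out 1 library lowered this number to 16 (Untr replicate 1), 17 (Untr replicate 2), 18 (LPS replicate 1), 16 (LPS replicate 2), 14 (Met + LPS replicate 1) or 15 (Met + LPS replicate 2). Past the fold-change cut-offs, 5 and 9 of the 62 remained, beside 6.08% and 8.28% of all genes. Because log2(TPM + 1) understates changes of low genes, these are not simply the most changed genes. Steap4 stayed just under the cut-off of 2 for LPS vs. Untr at 1.97, beside 6.34 with voom on the recovered reads.

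**Figure D4:**
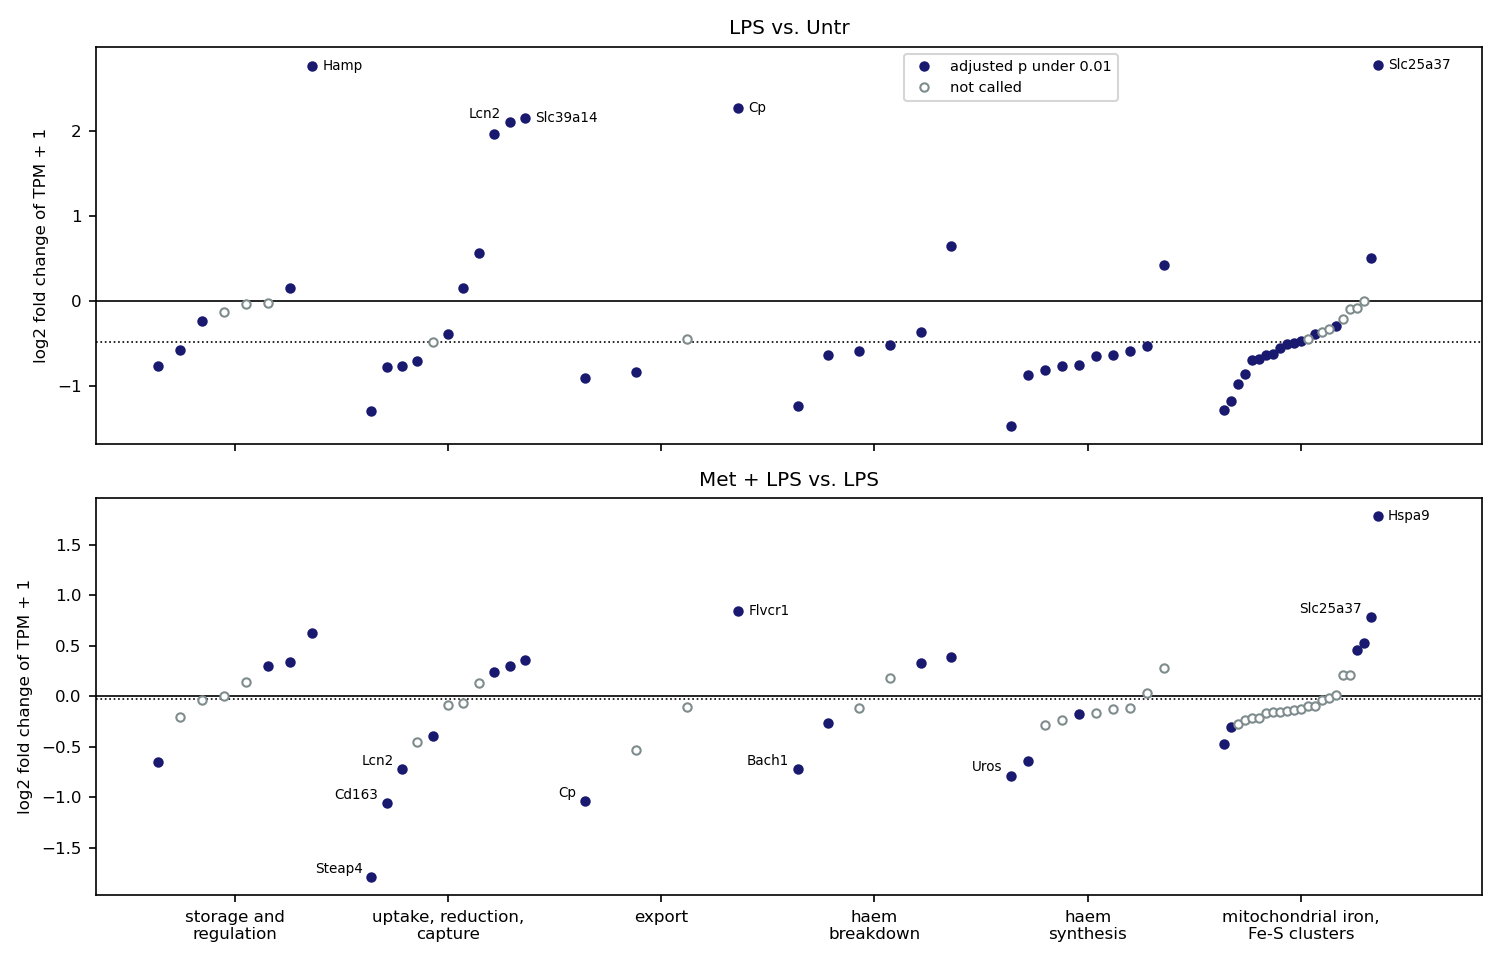
Log2 fold changes (vertical axes, log2 of TPM + 1, deposited scale) of 62 iron and haem genes in 6 lists, for LPS vs. Untr (top) and Met + LPS vs. LPS (bottom); filled points passed the test, open points did not, names mark genes past the fold-change cut-off, and the dotted line is the median of all tested genes. Most genes lie close to the dotted line at -0.48 in the upper panel, where rescaling would move all points up, and Slc25a37, Hamp, Cp, Slc39a14 and Lcn2 lie above 2.

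In the list of storage and regulation genes, 2 of 8 tested genes rose and 3 fell with LPS on the deposited scale (16.2% and 60.1% of all genes), and 5 rose and 1 fell after rescaling (30.6% and 27.6%). Hamp, which encodes hepcidin, the peptide that binds ferroportin and triggers its removal, was listed at 0 in both Untr libraries and at 4.81 and 7.02 TPM in LPS and 5.81 and 4.13 in Met + LPS. It rested on 15 to 21 reads in the stimulated libraries. LPS was at least 5.79-fold higher than the level that 3 reads per library would give in Untr (adjusted p = 1.86e-05 for LPS vs. Untr). Its near-identical neighbour Hamp2 was listed at 0 throughout, and only 66.3% of the 31-base words of Hamp occur in no other gene, so that Hamp is uncertain too. LPS and Met + LPS overlapped in Hamp. Hfe, a partner of the transferrin receptors, fell from 44.6 to 25.9 TPM with LPS and on to 16.1 in Met + LPS (changes of -0.76 and -0.65, both called, and -0.25 and -0.64 after rescaling, both called). Between LPS and Met + LPS, 3 of the 8 rose and 1 fell (14.5% and 18% of all genes).

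In the list of uptake, reduction and capture genes, 5 of 11 tested genes rose and 5 fell with LPS (16.2% and 60.1% of all genes), and 5 rose and 4 fell after rescaling (30.6% and 27.6%). Slc39a14, a metal transporter that takes up iron not bound to transferrin, rose from 8.40 to 40.8 TPM (2.15, adjusted p = 2.78e-07, or 2.63 after rescaling) and fell to 30.8 in Met + LPS (-0.39, called). Lcn2, which captures bacterial iron carriers, rose from 0.152 to 3.94 TPM (2.10, adjusted p = 1.46e-05, or 2.27 after rescaling), and Met + LPS was lower by 0.72 (adjusted p = 0.00629). Steap4, a plasma membrane metalloreductase, held 0.042 and 0 TPM in Untr, 2.71 and 3.30 in LPS, and 0.210 and 0.107 in Met + LPS. It rose by 1.97 with LPS (adjusted p = 3.21e-05, or 2.10 after rescaling) and fell by 1.79 in Met + LPS (adjusted p = 0.000227). These changes rest on 1 and 0 reads in Untr and 5 and 3 reads in Met + LPS. Steap4 reached the 1 TPM of the filter only in LPS, so being tested already required high values there. Its calls, which the counts of this list include, are therefore a description. Cd163, the receptor for haemoglobin bound to haptoglobin, fell from 16.7 to 6.21 TPM with LPS and to 2.50 in Met + LPS (changes of -1.29 and -1.05, both called, and -0.81 and -1.07 after rescaling). In this list, 3 genes rose and 4 fell between LPS and Met + LPS (14.5% and 18% of all genes).

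Of the export list, 4 genes were tested. With LPS, 1 rose (Cp) and 2 fell (Flvcr1 and Slc48a1) on both scales (76.3% of all genes passed, or 58.3% after rescaling). Slc48a1 is a haem transporter but not an exporter from the cell. In Met + LPS, 1 gene of the list rose and 1 fell (32.6% passed). Cp, the ferroxidase ceruloplasmin, which loads exported iron onto transferrin, rose from 0.189 to 4.73 TPM with LPS (2.27, adjusted p = 4.85e-06, or 2.46 after rescaling) and fell by 1.04 in Met + LPS (adjusted p = 0.000687). Cp rested on 19 and 8 reads in Untr. With voom on the recovered reads, which adds no 1 to the TPM, its changes were 4.71 and -1.40. Flvcr1, described as a haem exporter, held 121 and 120 TPM in Untr, 64.3 and 63.0 in LPS, and 119 and 111 in Met + LPS. It fell by 0.91 with LPS (0.39 after rescaling, still called) and rose by 0.84 in Met + LPS (adjusted p = 2.98e-05). Flvcr1 and Slc40a1 were thus both lower in LPS than in Untr and both higher in Met + LPS than in LPS.

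Of the 6 tested genes of haem breakdown and its control, 1 rose and 5 fell with LPS (16.2% and 60.1% of all genes), and 1 rose and 1 fell after rescaling (30.6% and 27.6%). Hmox1, haem oxygenase, which frees iron from haem, fell from 677 to 286 TPM with LPS (-1.24, or -0.71 after rescaling, both called) and rose to 360 in Met + LPS (0.33, adjusted p = 0.00334). Bach1, a repressor of Hmox1 and of ferritin genes, went the other way, with 88.8 and 87.8 TPM in Untr, 126 and 154 in LPS, and 89.6 and 79.2 in Met + LPS. It rose by 0.65 with LPS, or by 1.17 after rescaling, and fell by 0.72 in Met + LPS (adjusted p = 0.00137). The change of the activator Nfe2l2 between LPS and Met + LPS was 0.39 (adjusted p = 0.00101), and with LPS it fell by 0.36 on the deposited scale but was 0.16 higher after rescaling, without passing. In this list, 2 genes rose and 2 fell between LPS and Met + LPS (14.5% and 18% of all genes).

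Of 10 tested genes of haem synthesis, 1 rose and 9 fell with LPS (16.2% and 60.1% of all genes), and 1 rose and 2 fell after rescaling (30.6% and 27.6%). The change largest in size was that of Slc25a38, the mitochondrial glycine importer, from 17.3 to 5.62 TPM (-1.47, or -0.99 after rescaling, both called). Between LPS and Met + LPS 3 of the 10 fell (18% of all genes), led by Uros, uroporphyrinogen synthase, from 5.73 to 2.90 TPM (-0.78, adjusted p = 0.00093). Of 23 tested genes of mitochondrial iron and iron-sulphur clusters, 2 rose and 14 fell with LPS (16.2% and 60.1% of all genes), and 5 rose and 3 fell after rescaling (30.6% and 27.6%). Slc25a37 (mitoferrin, which brings iron into mitochondria) held 25.2 and 27.5 TPM in Untr, 183 and 191 in LPS, and 309 and 334 in Met + LPS. It rose by 2.78 with LPS (adjusted p = 7.75e-08, or 3.29 after rescaling) and by 0.78 in Met + LPS (adjusted p = 0.000113), and no groups overlapped. Hspa9, a mitochondrial chaperone that serves iron-sulphur cluster assembly, held 256 and 251 TPM in Untr, 247 and 232 in LPS, and 809 and 840 in Met + LPS. It rose by 1.78 in Met + LPS (adjusted p = 4.43e-06), while its difference of -0.08 with LPS did not pass on the deposited scale and it was 0.44 higher after rescaling, where it passed. In all, 4 of the 23 rose and 2 fell between LPS and Met + LPS (14.5% and 18% of all genes).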

How the data were processed

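Poly-A RNA-seq libraries of BMDMs (Untr, LPS and Met + LPS, 2 each) were analysed. Per the submitters' processing notes, STAR 2.6.1d, SAMtools 1.9 and featureCounts of Subread 1.6.3 were used on GRCm38, and the authors deposited TPM for 54532 genes without pooling libraries, beside gene positions and lengths. Columns of samples outside the series numbered 0. The TPM fitted whole reads with the joined exon length of a gene (96.0% to 96.3% of values above 0 within 0.02 of a whole read) and not with the transcript length in the table (34.5% to 36.5%). Recovered reads served for depth and for voom. Limits from reads cover counting error only.

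Genes with at least 1 TPM in 2 or more of 6 libraries (12755) were fitted in limma 3.58.1 (R 4.3.3) on log2(TPM + 1), which understates changes of low genes, with a mean-variance trend, 3 residual degrees of freedom, no covariate and Benjamini-Hochberg adjustment over those genes. Of the genes named, Hamp, Lcn2 and Cp reached 1 TPM only in stimulated libraries, and Steap4 only in those of LPS. Their tests therefore depend on the groups in which they are high. A call needed an adjusted p under 0.01. The study's fold-change cut-offs (log2 of 2 and of 0.7) served as a stricter call. The script was checked on simulated data. Intervals are 95%. Python 3.11.15 served for tables (pandas 2.3.3, numpy 2.4.6), permutation tests (scipy 1.17.1) and plots (matplotlib 3.10.9). The members, lists and tests were chosen with earlier results of these data known. Named were all members, pathway genes past the cut-offs, the gene with the largest absolute change of each list and comparison, and the 3 genes most like the most changed member. Nfe2l2 was chosen after its values were seen, as were the pseudogenes. Alternatives were another pseudocount, filter, scaling, sample set, trend or threshold, a replicate block, each library left out, and voom, whose median-ratio form was chosen after seeing the data. Sequences and UTRs come from GENCODE M21 (GRCm38). Sec15l1, 1 of 81 listed names, matched no row.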

Additional observations from a re-analysis of the deposited data

How the results depend on the processing

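Of the 10 members, 9 were called in LPS vs. Untr, 3 in Met + LPS vs. LPS and 9 in Met + LPS vs. Untr. Rescaling by the median ratio gave 5 in LPS vs. Untr. In Met + LPS vs. LPS, no filter gave 1, a minimum of 5 TPM 5, the replicate block 5, voom 6, voom with median-ratio scaling 6 and an adjusted p cut-off of 0.05 gave 7. Leaving out each library gave 2 to 4 there and 5 to 9 in Met + LPS vs. Untr (5 without Untr replicate 2). With the fold-change cut-offs 1 member was left in LPS vs. Untr and 1 in Met + LPS vs. LPS, and no cut-off exists for Met + LPS vs. Untr. Of the pathway genes (50 and 26 called), rescaling left 31 in LPS vs. Untr and the cut-offs left 5 and 9. In Met + LPS vs. LPS, no filter left 17, the 4 libraries compared alone 16, no trend 17, and leaving out each library 14 to 18. Against Untr, the direction turned after rescaling of TPM and of voom reads for Fth1 (0.061 and 0.061), Tfrc (0.17 and 0.18), Slc11a1 (0.042 and 0.042) and Ireb2 (0.45 and 0.47) in LPS, and for Ftl1 (0.077 and 0.078), Tfrc (0.30 and 0.31), Slc11a1 (0.33 and 0.34) and Ireb2 (0.34 and 0.35) in Met + LPS. Aco1 in Met + LPS vs. LPS ranged from -0.089 to 0.027 when libraries were left out, with 0.013 without LPS replicate 1 and 0.027 without Met + LPS replicate 1. A pseudocount of 1 in the ratios gave -2.16 for Slc40a1/Fth1 and -2.29 for Slc40a1/Tfrc in LPS vs. Untr, and 0.64 for Slc40a1/Tfrc in Met + LPS vs. LPS. Fth1 lost its calls in LPS vs. Untr and Met + LPS vs. LPS without a filter. Apart from the changes of scale and of calls that follow from their construction, the cause was not tested.

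The sample titles mark replicate 1 of each group with A and replicate 2 with B. The correlation across genes of replicate differences was -0.004, 0.03 and 0.006 for the 3 pairs of groups, so no strong shared difference was seen. It cannot tell whether libraries of the same letter were cultured or prepared together. With the replicate block, Ftl1 and Ncoa4 also passed in Met + LPS vs. LPS, and the other 28 of 30 member results kept their side. The block gave 51 and 25 pathway genes. With 2 libraries a group, 3 residual degrees of freedom limit what can be called. Depth limits Hamp, Steap4, Lcn2 and, in Untr, Cp rather than the members.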
